A study of Mus musculus with 6 samples.

Results

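Genes of the step from G1 into S phase of the cell cycle are described here in the mouse incisor mesenchyme. They are the D-type cyclins Ccnd1, Ccnd2 and Ccnd3, the E-type cyclins Ccne1 and Ccne2, the cyclin-dependent kinases Cdk2, Cdk4 and Cdk6, the brake Rb1 and the transcription factor E2f1. Genes were taken by symbol from a table of normalized values, and the 10 symbols were found among 23718 listed genes. All 10 passed the filter for testing, a mean of at least 1 over the 6 libraries, as did 15391 genes in all.

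In this pathway, growth signals first raise D-type cyclins, which bind CDK4 and CDK6. The active kinases phosphorylate the retinoblastoma protein RB1, which then releases E2F factors to switch on genes of DNA replication, cyclin E among them. Cyclin E with CDK2 completes the phosphorylation, and the cell is committed to S phase. In the incisor, slowly dividing mesenchymal stem cells supply rapidly dividing transit amplifying cells, and the growing end of the tooth is renewed from them throughout life.

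RNA of 2 laser-captured regions was sequenced from incisors of mice 1 month old, labelled as strain C57BL/6 (the study's methods describe a mixed background). The mesenchymal stem cell (MSC) group came from Gli1-CreER;tdT mice and the transit amplifying cell (TAC) group from Axin2-CreER;tdT mice, 3 libraries each. Both genotypes carry a tamoxifen-inducible Cre and a red fluorescent reporter, and both received tamoxifen the day before collection. Each region was taken from mice of its own driver, Gli1 for one and Axin2 for the other, so genotype and region cannot be told apart. Captured tissue was not limited to cells marked by the driver. Markers of dental epithelium and odontoblasts were found in every library, at the summed levels given below. Levels of the driver genes themselves overlapped between the groups over all libraries. Gli1 was 256, 245 and 422 in the MSC libraries and 153, 141 and 396 in the TAC libraries, here and below in the order of replicates 1, 2 and 3. It was higher in MSC at each replicate number, with a log2 fold change, TAC minus MSC, of -0.54 (adjusted p = 0.718, limma), -0.77 within replicates 1 and 2 (adjusted p = 6.63e-06, limma) and -0.090 within replicate 3. Axin2 was 58.3, 48.0 and 12.0 in MSC and 56.8, 63.9 and 34.1 in TAC, a change of 0.60 (adjusted p = 0.758, limma), 0.18 within replicates 1 and 2 and 1.43 within replicate 3.

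Replicate 3 of both groups stood apart from replicates 1 and 2, for a reason not given in the sources used here, which gives 2 sets of libraries. Replicates 1 and 2 of both groups held between 20203200 and 25567200 estimated reads, and 6.38% to 7.88% of listed genes had no read. Replicate 3 held 59793600 reads in MSC and 108156000 in TAC, yet 42.6% and 27.8% of genes had none. MSC replicate 3 was also low in dental epithelium markers, at a summed level of 299.7 over 7 genes against 2144 to 3657 in the other 5 libraries, with Epcam and Cdh1 at no read. Its odontoblast markers summed to 763 over 4 genes, against 4405 to 5173 elsewhere, with Dmp1 at no read. Dental mesenchyme markers were present in every library, and here too MSC replicate 3 was lowest, with a summed level over 8 genes of 2965 against 10639 and 10687 in the other MSC libraries and 8817 to 11993 in TAC. Every change of the 10 genes is therefore given over all 6 libraries and within each set. Levels are in the deposited unit, estimated reads plus 1 divided by a size factor per library and not by gene length, so 1 gene can be compared between libraries but genes can be set side by side only per kb.

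The 3 D-type cyclins share a short motif near the N terminus, leucine, any residue, cysteine, any residue, glutamate, through which they contact RB1. The first 60 bases of each coding sequence are shown with the 5 codons of that motif in capitals, because they are what the genes have in common at the point where the pathway turns. Positions are on build mm10 from GENCODE release M21, at chr7:144939634-144939693 on the minus strand for Ccnd1, chr6:127150714-127150773 on the minus strand for Ccnd2 and chr17:47593655-47593714 on the plus strand for Ccnd3.
Ccnd1: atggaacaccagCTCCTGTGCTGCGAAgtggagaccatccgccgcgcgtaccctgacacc
Ccnd2: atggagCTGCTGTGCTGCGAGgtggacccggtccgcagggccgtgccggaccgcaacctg
Ccnd3: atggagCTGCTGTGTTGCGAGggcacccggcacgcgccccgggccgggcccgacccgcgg
The motif spans codons 5 to 9 in Ccnd1 and codons 3 to 7 in Ccnd2 and Ccnd3. Over the whole coding sequence Ccnd1 and Ccnd2 were 67.0% identical, Ccnd1 and Ccnd3 63.2%, and Ccnd2 and Ccnd3 66.4%. No exonic window of 75 bases, the length of a read, was shared between any of the 10 genes, so reads could be told apart within the families.

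The D-type cyclins differed between the regions in opposite directions. Ccnd1 was higher in every TAC library than in any MSC library, whereas Ccnd2 and Ccnd3 were higher in every MSC library. In the fit without a block for the replicate number, none of these differences passed the threshold after adjustment over all genes (limma, Benjamini-Hochberg). That threshold was passed by 0.422% of tested genes, 0.039% with a higher level in TAC and 0.383% with a higher level in MSC. In these bulk samples, fewer cells with a transcript and less of it per cell cannot be told apart.

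Ccnd1 encodes cyclin D1, a cyclin that responds to growth factor and WNT signals. It was 65.4, 65.6 and 60.5 in MSC and 102, 102 and 124 in TAC. The groups did not overlap, and the means were 63.8 ± 2.88 in MSC and 109 ± 12.5 in TAC (SD, n = 3), a ratio of 1.71. On the log2(value + 1) scale, TAC minus MSC was 0.76 with an SE of 0.24 (unadjusted p = 0.0154, adjusted p = 0.279, limma). It was 0.63 within replicates 1 and 2 and 1.02 within replicate 3, a set of 1 library per group with no spread of its own here and below. Exons of Ccnd1 at chr7:144929931-144939925 overlap those of LTO1 on the other strand, listed as Oraov1, and 20.6% of 75-base windows of Ccnd1 lie in both genes. Oraov1 was 10.3, 11.4 and 77.2 in MSC and 9.01, 9.33 and 26.4 in TAC, lower in TAC at each replicate number. Its part in the Ccnd1 values was not tested. Whether counting used strand is not given in the sources used here.

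Ccnd2, encoding cyclin D2, had the largest log2 fold change of the 3. It was 205, 206 and 135 in MSC and 70.7, 70.3 and 46.1 in TAC. Replicate 3 was the lowest library of each group, and even so the lowest MSC value lay above the highest TAC value. The group means were 182 ± 40.4 in MSC and 62.4 ± 14.1 in TAC (SD, n = 3), a ratio of 2.92 in favour of MSC. TAC minus MSC was -1.53 on the log2 scale, with an SE of 0.31 (unadjusted p = 0.00161, adjusted p = 0.119, limma). The change was the same size in both library sets, -1.53 within replicates 1 and 2 and -1.53 within replicate 3. With the replicate number as a block the adjusted p was 0.0327, and without MSC replicate 3 it was 0.0462 (limma), so the call depended on how the library sets were treated. Antisense genes Gm43126 and 9330179D12Rik overlap Ccnd2 (chr6:127125162-127152193) in 5.52% of its 75-base windows. Gm43126 had no read in 5 libraries and a value of 18.2 in MSC replicate 3, the MSC library in which Ccnd2 was lowest.

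Ccnd3, encoding cyclin D3, was 63.8, 62.8 and 69.5 in MSC. Its TAC values were 33.2, 33.6 and 41.1. Every MSC library lay above every TAC library, and here replicate 3 was the highest of each group. The means were 65.3 ± 3.67 and 36.0 ± 4.41 (SD, n = 3), a ratio of 1.82 in favour of MSC. The log2 fold change was -0.85 with an SE of 0.25 (unadjusted p = 0.0102, adjusted p = 0.232, limma), -0.90 within replicates 1 and 2 and -0.75 within replicate 3. The gene lies at chr17:47505051-47599691, and 3.53% of its 75-base windows occur in another gene.

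Markers of vessel-associated cells were higher in MSC together with Ccnd2 and Ccnd3. All 5 smooth muscle and pericyte markers had an unadjusted p under 0.05 and 4 passed the adjusted threshold. Of all tested genes, 6.43% and 0.383% did so with a higher level in MSC. The summed level of these markers was 714 to 1392 in MSC and 71.1 to 100 in TAC. Endothelial markers summed to 121 to 174 in MSC and 58.1 to 79.1 in TAC, and 2 of 4 had an unadjusted p under 0.05. Neither list had a marker at no read. Schwann cell markers summed to 16.7 to 29.7 in MSC and 4.73 to 14.8 in TAC, 1 of 4 with an unadjusted p under 0.05, with S100b at no read in MSC replicate 3 and Sox10 in TAC replicate 3. The vessel and Schwann cell lists ran opposite to Ccnd1 and to the genes below that were higher in TAC. At the same unadjusted p, 3 of 8 dental mesenchyme markers were higher in MSC and 1 in TAC. So were 1 of 6 macrophage and blood markers in MSC and 1 of 7 dental epithelium markers in TAC. The odontoblast and dental follicle lists had 0 of 4 each. Summed levels of these other lists overlapped between the groups. The part of any of the lists in the levels of the 10 genes was not tested.

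**Figure D1:**
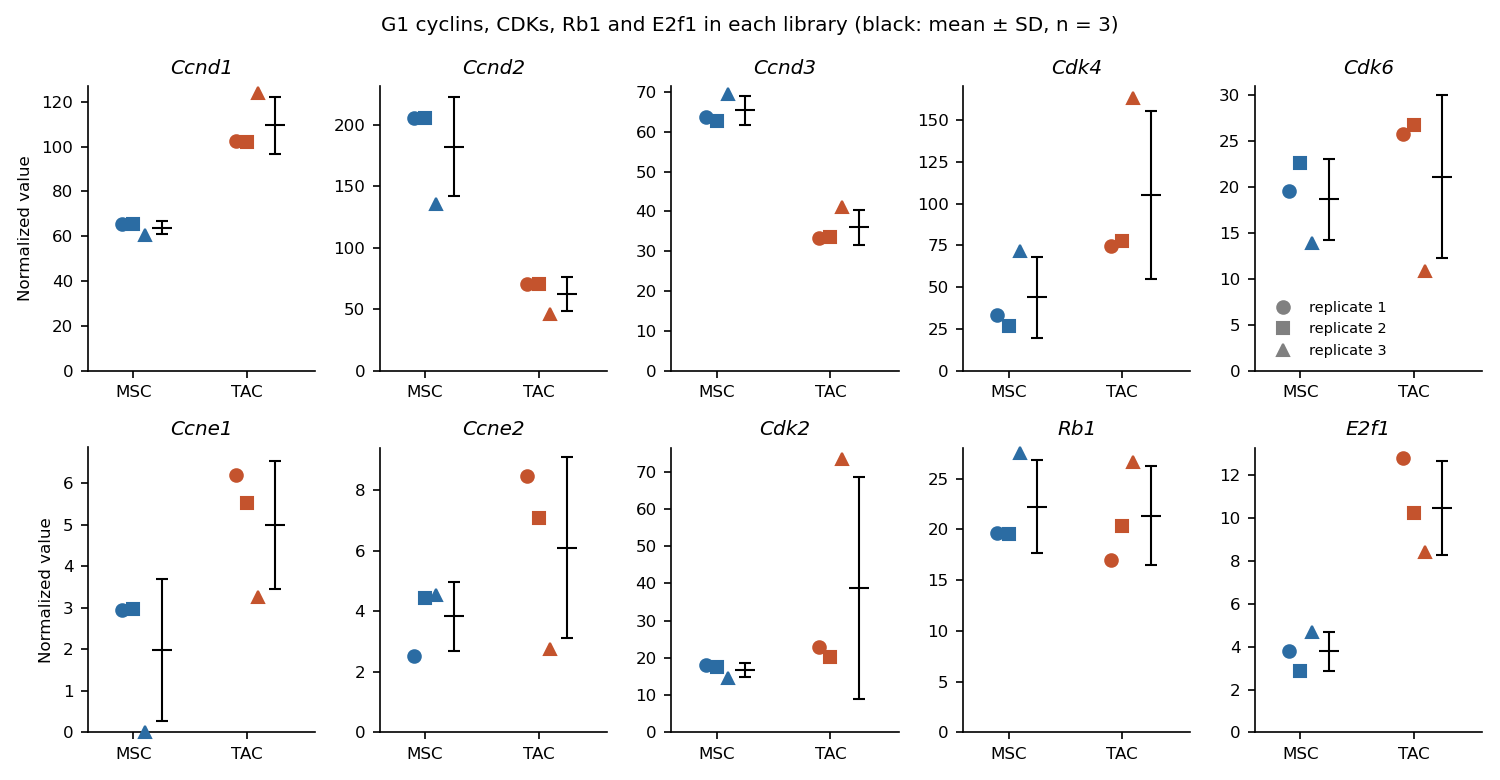
Normalized value (vertical axis, linear and starting at 0) of each of the 10 genes in the 3 MSC and 3 TAC libraries; symbols mark replicates 1, 2 and 3, and black bars the mean ± SD (n = 3). Ccnd1 lies higher in every TAC library, Ccnd2 and Ccnd3 in every MSC library, and the Cdk2 mean in TAC rests on replicate 3 at 73.3.

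Divided by exon length, the 3 levels can be set beside each other. With the union of exons as length, Ccnd1 made up 32.3%, 32.4% and 36.5% of the summed D-type cyclin level per kb in MSC, and 65.8%, 65.7% and 73.3% in TAC. Ccnd2 went the other way, with 50.8%, 50.9% and 40.9% in MSC and 22.7%, 22.7% and 13.7% in TAC. Ccnd3 accounted for 16.7% to 22.5% in MSC and 11.5% to 13.0% in TAC. Ccnd2 was thus the first of the 3 in every MSC library and Ccnd1 in every TAC library.

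With the longest transcript as length, Ccnd2 was again first in MSC, at 45.4% against 27.3% for Ccnd1 and 27.3% for Ccnd3. With the longest protein-coding transcript as length, an alternative chosen after seeing the data, Ccnd3 made up 40.5% ± 5.33, Ccnd2 37.2% ± 5.93 and Ccnd1 22.3% ± 0.606 in MSC (SD, n = 3). By that length Ccnd2 stood above Ccnd3 in replicates 1 and 2 (40.5% against 37.7% and 40.7% against 37.3%), and Ccnd3 stood above Ccnd2 in replicate 3 (46.7% against 30.4%). In TAC, Ccnd1 was first under each of the 3 lengths, with 52.0% ± 2.89 by the protein-coding transcript and 68.3% ± 4.36 by the union of exons (SD, n = 3). The summed level of the 3 genes per kb of exon union was 35.2 to 43.0 in MSC and 33.0 to 35.9 in TAC, and these ranges overlapped. By longest transcript the sums did not overlap, at 55.6 to 66.5 in MSC and 47.1 to 51.0 in TAC, nor did they by protein-coding transcript, at 70.5 to 80.1 in MSC and 54.3 to 59.8 in TAC.

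**Figure D2:**
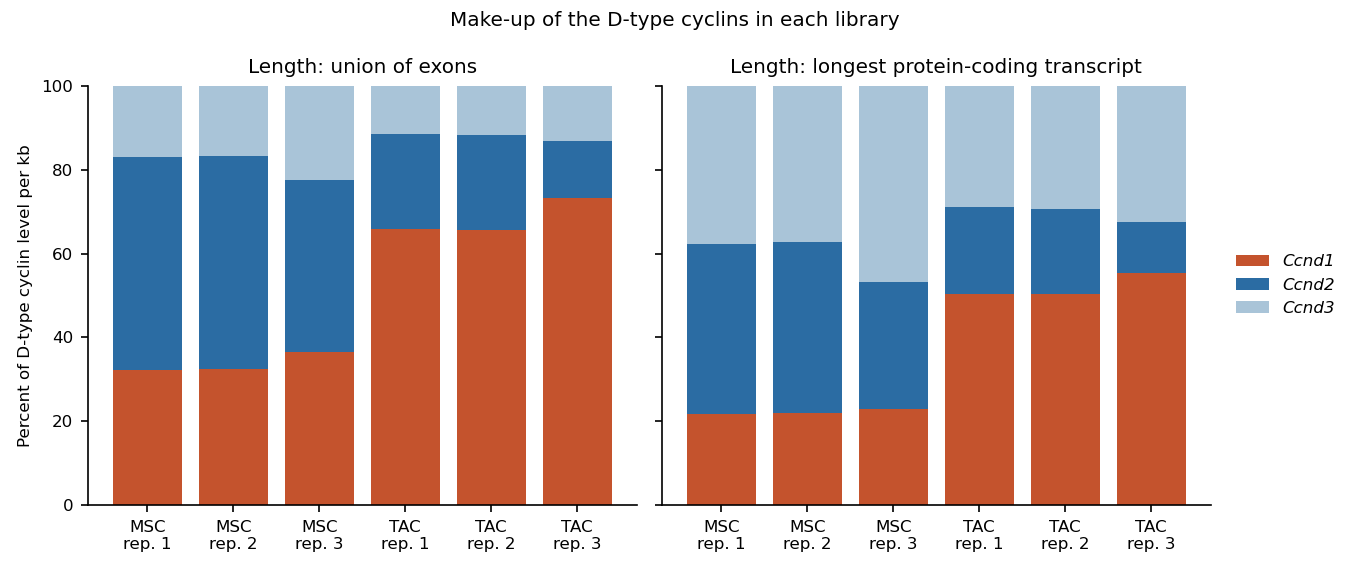
Percent of the summed D-type cyclin level per kb (vertical axis, 0 to 100) taken by Ccnd1, Ccnd2 and Ccnd3 in each of the 6 libraries, with length as the union of exons (left) or the longest protein-coding transcript (right). Ccnd1 takes 32.3% to 36.5% in MSC and 65.7% to 73.3% in TAC by exon union, and the larger mean of Ccnd2 and Ccnd3 in MSC differs between these 2 lengths.

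Since a ratio of 2 genes within a library depends little on its scaling, Ccnd1 was also set against Ccnd2 directly. The log2 ratio of Ccnd1 over Ccnd2, each with 1 added, was -1.64, -1.63 and -1.15 in MSC and 0.53, 0.53 and 1.41 in TAC. It was below 0 in all 3 MSC libraries and above 0 in all 3 TAC libraries, a mean difference of 2.30. The exact permutation test over samples, two-sided, gave p = 0.1, the smallest it can give with 3 against 3 (0.2 after Benjamini-Hochberg adjustment over the 4 ratios computed).

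Of the partner kinases of the D-type cyclins, Cdk4 was higher in every TAC library, and Cdk6 overlapped between the groups. Neither passed the adjusted threshold over all libraries in the fit without a block.

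Cdk4, on chromosome 10 at chr10:127063534-127067920, was 33.6, 26.8 and 71.5 in MSC. In TAC it was 74.5, 77.8 and 163. The replicate 3 library was far above the others of its group in both regions, and the highest MSC value lay just under the lowest TAC value. The means were 43.9 ± 24.1 and 105 ± 50.2 (SD, n = 3), a ratio of 2.39. TAC minus MSC was 1.27 with an SE of 0.47 (unadjusted p = 0.0296, adjusted p = 0.348, limma), and it was 1.32 within replicates 1 and 2 and 1.18 within replicate 3. With the replicate number as a block the adjusted p was 0.0489 (limma). Tspan31 overlaps Cdk4 on the other strand in 15.7% of the 75-base windows of Cdk4, and it was 7.62, 10.8 and 16.7 in MSC and 13.1, 12.0 and 38.6 in TAC.

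Cdk6 was 19.5, 22.6 and 13.9 in MSC and 25.7, 26.8 and 10.9 in TAC. TAC was the higher group in replicates 1 and 2 and the lower in replicate 3. Over all libraries TAC minus MSC was 0.10, with a 95% interval of -0.92 to 1.11 (adjusted p = 0.968, limma). It was 0.31 within replicates 1 and 2 and -0.33 within replicate 3. Per kb of exon union Cdk4 took 83.6% to 98.5% of the sum of the 2 kinases in every library. The log2 ratio of Cdk4 over Cdk6 was 0.75, 0.23 and 2.28 in MSC and 1.50, 1.50 and 3.79 in TAC. These groups overlapped, because MSC replicate 3 lay above TAC replicates 1 and 2, with a mean difference of 1.17 (exact permutation p = 0.4, two-sided, 0.4 after adjustment). The difference was 0.41 without TAC replicate 3, 0.75 without MSC replicate 2 and 1.77 without MSC replicate 3. Within equal replicate numbers the ratio was higher in TAC in 3 of 3 pairs, by 0.74, 1.27 and 1.50. The exact paired permutation test, added after seeing the data, gave p = 0.25, the smallest that 3 pairs allow.

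The E-type cyclins, the regulatory partners of CDK2, were low and less well measured. Ccne1 was higher in every TAC library and Ccne2 only in replicates 1 and 2.

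Ccne1 (chr7:38097984-38107534) was 2.96 and 2.98 in MSC replicates 1 and 2, from 110 and 102 estimated reads. In MSC replicate 3 it had no read, which allows a value of up to 0.0266 (3 reads, counting error only). TAC replicates 1, 2 and 3 gave 6.20, 5.54 and 3.26. It shared this with many genes of its level: of 2307 genes with a mean of 2 to 4 in MSC replicates 1 and 2, 1166 (50.5%) had no read in MSC replicate 3. The fitted change was 1.22 on the log2 scale with an SE of 0.70 (unadjusted p = 0.123, adjusted p = 0.560, limma). With the replicate number as a block the unadjusted p was 0.0460 and the adjusted p 0.238 (limma). Without MSC replicate 3 the change was 0.56. The change was 0.79 within replicates 1 and 2 and 2.08 within replicate 3, where the MSC value without a read makes the size depend on the pseudocount.

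Ccne2 (chr4:11191351-11204779) was 2.52, 4.43 and 4.55 in MSC. In TAC it was 8.46, 7.09 and 2.75. TAC replicate 3 lay within the MSC range and the other TAC libraries lay above it. The log2 fold change was 0.48, with a 95% interval of -0.84 to 1.8 (adjusted p = 0.807, limma), and it was 1.00 within replicates 1 and 2 and -0.57 within replicate 3. It was 0.22 without TAC replicate 1 and 0.89 without TAC replicate 3. Ints8 overlaps it in 12.8% of the 75-base windows of Ccne2. The log2 ratio of Ccne1 over Ccne2 was 0.17, -0.45 and -2.46 in MSC and -0.39, -0.31 and 0.18 in TAC, with overlapping groups (mean difference 0.74, exact permutation p = 0.4, two-sided, 0.4 after adjustment).

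Cdk2, the kinase that acts with cyclin E at the start of S phase, was 18.2, 17.5 and 14.6 in MSC. It was 22.9, 20.3 and 73.3 in TAC. All TAC libraries lay above all MSC libraries, by little in replicates 1 and 2 and by far in replicate 3. Its log2 fold change was 0.92 with an SE of 0.51 (unadjusted p = 0.109, adjusted p = 0.537, limma). It was 0.26 within replicates 1 and 2 and 2.25 within replicate 3, the widest gap between the sets among the 10 genes. Without TAC replicate 3 the change was 0.35. No 75-base window of Ccne1 or Cdk2 was found in another gene.

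An E2F motif stood in the promoter window of Cdk2, shown here because it was the only window searched for the 10 genes that held the motif. The motif was searched as TTTCCCGC, TTTCGCGC, TTTGCCGC or TTTGGCGC on either strand of RefSeq windows on GRCm38.p6 that run from 250 bases before to 50 bases after a start. Of the 10 genes 6 had such windows, 7 in all, and 1 window held the motif. The window of Cdk2, chr10:128705002-128705301 on the minus strand, is shown with the motif in capitals, which begins 140 bases before the start and reads TTTCCCGC on the other strand.
Cdk2: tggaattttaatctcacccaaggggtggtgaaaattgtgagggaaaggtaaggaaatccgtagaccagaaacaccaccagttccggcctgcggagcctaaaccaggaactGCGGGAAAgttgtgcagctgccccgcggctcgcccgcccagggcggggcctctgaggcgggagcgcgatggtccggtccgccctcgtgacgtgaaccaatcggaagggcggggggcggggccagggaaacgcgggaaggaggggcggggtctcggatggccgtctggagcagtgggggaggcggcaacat
Over all genes, 744 of 32851 windows (2.26%) held one of these words. The windows of E2f1, Cdk6, Ccne1, Cdk4 and Ccnd3 held none, which says only that these letters are not in them. The E2f1 window, chr2:154569377-154569676 on the minus strand, lies inside the GENCODE gene, which ends at 154569892. The Cdk6 window, chr5:3343643-3343942 on the plus strand, lies inside its gene, which starts at 3341485. Sequence at the GENCODE starts of these genes was therefore not searched.

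Rb1 and E2f1 stand at the end of the step, the brake and the factor it holds. Rb1 overlapped between the regions. E2f1 was higher in every TAC library, without passing the adjusted threshold.

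Rb1 (chr14:73183673-73325822) was 19.7, 19.5 and 27.5 in MSC and 17.0, 20.3 and 26.6 in TAC. Replicate 3 was the highest library of both groups. TAC minus MSC was -0.063 with a 95% interval of -0.82 to 0.69 (adjusted p = 0.973, limma). It was -0.072 within replicates 1 and 2 and -0.046 within replicate 3. Lpar6 and Rcbtb2 share 10.4% of the 75-base windows of Rb1 and lie on its other strand.

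E2f1 (chr2:154559407-154569892) was 3.78, 2.87 and 4.70 in MSC. It was 12.8, 10.2 and 8.42 in TAC. The groups did not overlap, with means of 3.78 ± 0.915 and 10.5 ± 2.21 (SD, n = 3), a ratio of 2.77. TAC minus MSC was 1.26 with an SE of 0.45 (unadjusted p = 0.0240, adjusted p = 0.327, limma), 1.53 within replicates 1 and 2 and 0.72 within replicate 3. The log2 ratio of E2f1 over Rb1 was -2.11, -2.41 and -2.32 in MSC and -0.38, -0.93 and -1.55 in TAC. It was higher in every TAC library, by 1.33 on average (exact permutation p = 0.1, two-sided, the smallest possible, 0.2 after adjustment).

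**Figure D3:**
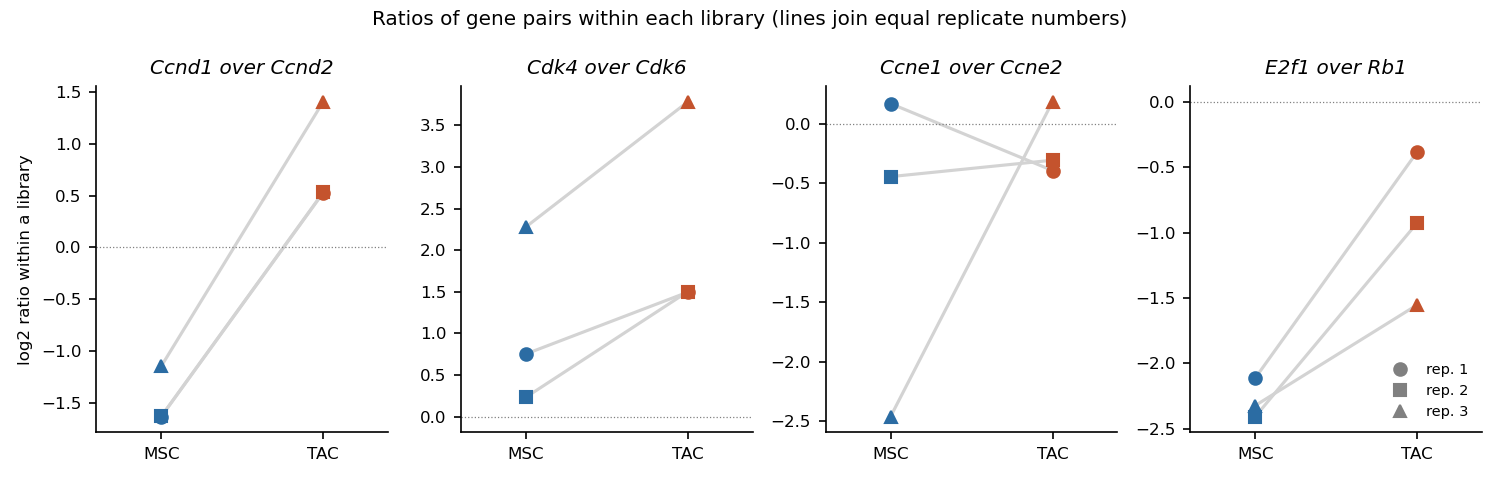
log2 ratio of gene pairs within each library (vertical axis, each value with 1 added), for MSC and TAC, with lines joining equal replicate numbers. Ccnd1 over Ccnd2 crosses from below 0 in MSC to above 0 in TAC in all 3 replicates, E2f1 over Rb1 is higher in every TAC library, and the other 2 ratios overlap between the groups.

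Across the 10 genes, 0 passed the adjusted threshold in the fit of all 6 libraries without a block. At an unadjusted p under 0.05, 5 of 10 were counted, against 11.9% of all tested genes: Ccnd1, Cdk4 and E2f1 higher in TAC and Ccnd2 and Ccnd3 higher in MSC (limma). By direction, the backgrounds were 5.42% for TAC and 6.43% for MSC. Groups did not overlap for 7 of 10 genes, 5 higher in TAC and 2 higher in MSC, against 24.5% of all tested genes. With the replicate number as a block, 2 of 10 genes passed the adjusted threshold, Ccnd2 and Cdk4, against 1.49% of all genes, and 6 of 10 had an unadjusted p under 0.05, against 20.4%. Within replicates 1 and 2 alone, 7 of 10 passed, against 44.2% of all genes: Ccnd1, Ccnd2, Ccnd3, Cdk4, Ccne1, Ccne2 and E2f1. The direction was the same in both library sets for 8 of 10 genes, against 61.2% of all genes, with Cdk6 and Ccne2 as the exceptions. An interaction test of the 2 sets passed for 5 of 10 genes, Ccnd1, Cdk6, Ccne1, Ccne2 and Cdk2, and for 57.2% of all genes. Its spread came from replicates 1 and 2 alone, since replicate 3 held 1 library per group, so nothing is read from it.

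**Figure D4:**
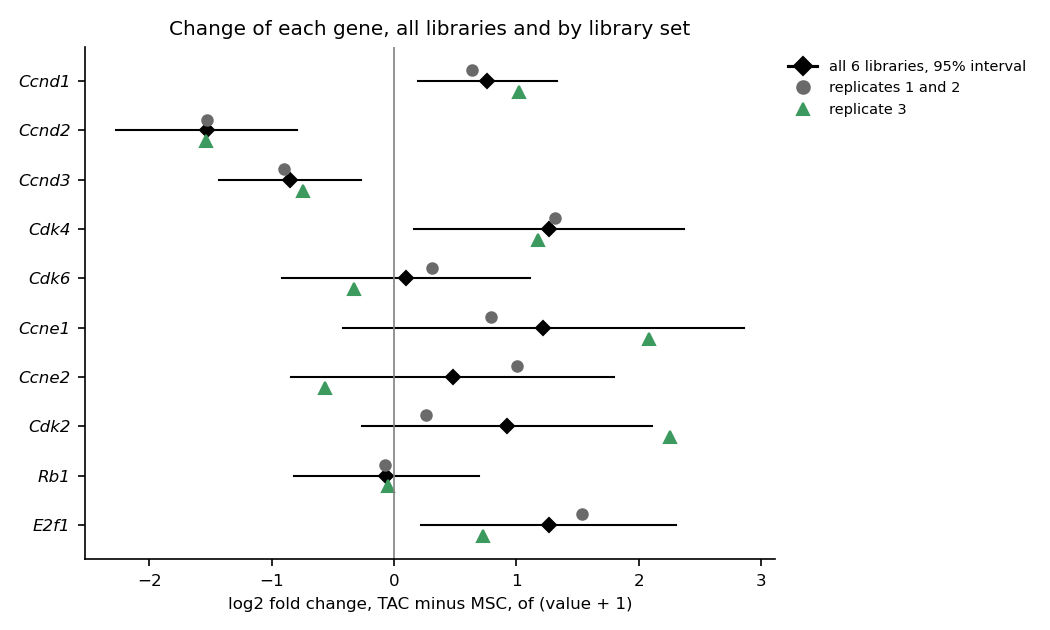
log2 fold change, TAC minus MSC, of value + 1 (horizontal axis) for each of the 10 genes; diamonds and lines give all 6 libraries with the 95% interval, circles replicates 1 and 2, and triangles replicate 3. Ccnd2 and Rb1 have nearly the same change in both sets, while Cdk2 is 0.26 in replicates 1 and 2 and 2.25 in replicate 3.

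Ordered by level per kb of exon union, the genes ranked differently in the 2 regions. In MSC, Ccnd2 came first at 19.4 ± 4.30, followed by Ccnd1 at 13.6 ± 0.611 and Cdk4 at 13.5 ± 7.41 (SD, n = 3). The range of Cdk4 overlapped those of Ccnd1 and Ccnd2, and in MSC replicate 3 Cdk4 was first, above Ccnd2 at 14.4. Ccnd3 (7.45), Rb1 (3.70) and Cdk2 (2.69) came next in MSC, and Cdk6 (1.34), E2f1 (1.20), Ccne2 (1.10) and Ccne1 (0.745) closed the order, these last 4 with overlapping ranges. In TAC, Cdk4 came first at 32.4 ± 15.5 and Ccnd1 second at 23.2 ± 2.65 (SD, n = 3), and their ranges overlapped. Ccnd2 (6.63), Cdk2 (6.24), Ccnd3 (4.10), Rb1 (3.55) and E2f1 (3.33) lay between, each overlapping its neighbours in TAC. The place of Cdk2 rests on TAC replicate 3, at 11.8 against 3.68 and 3.27 in replicates 1 and 2. Ccne1 (1.88), Ccne2 (1.75) and Cdk6 (1.51) were lowest in TAC. E2f1 thus lay among the lowest genes in MSC, and in TAC, by this length, each of its libraries was above every library of Cdk6 and of both E-type cyclins. The order depended on the length used. By longest protein-coding transcript, MSC means were 30.9 for Ccnd3, 28.8 for Ccnd2, 21.4 for Cdk4 and 17.1 for Ccnd1. In TAC, Ccnd3 (17.0) and Cdk2 (16.1) then stood above Ccnd2 (9.85).

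The other genes of the pathway were taken from lists written from general knowledge, and their values stand beside those of the 10. Among the other E2F factors and their DP partners, 6 of 9 had an unadjusted p under 0.05, all higher in TAC, against 5.42% of all tested genes in that direction, and the median log2 fold change was 1.40. Over all tested genes the median was 0.026. Tfdp1, the DP partner of E2F1 and the member of that list with the smallest p (named after its values were seen), was 26.1, 26.8 and 29.3 in MSC and 68.0, 70.7 and 84.6 in TAC. Its log2 fold change was 1.40, with an adjusted p of 0.0850, and of 0.0442 with the replicate block (limma).

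Of 20 genes that E2F factors are known to switch on, 14 had an unadjusted p under 0.05, all higher in TAC (5.42% of all genes), with a median of 1.49. Mcm5, a subunit of the replicative helicase, was 9.49, 9.88 and 2.53 in MSC and 46.7, 49.2 and 43.0 in TAC (2.68, adjusted p = 0.0909, limma). Mcm3, another subunit, was 20.8, 15.7 and 3.09 in MSC and 67.9, 67.9 and 39.0 in TAC (2.33, adjusted p = 0.201, limma). Both had non-overlapping groups, as had 15 of the 20 genes, all higher in TAC (12.3% of all genes). With the replicate block, Mcm2, a further subunit named after its values were seen, had an adjusted p of 0.0489 (limma).

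All 7 genes of the S, G2 and M list were higher in TAC at an unadjusted p under 0.05 (5.42% of all genes), with a median of 1.97. With the replicate block 6 of the 7 were, against 20.4% of all genes in either direction, and Ccna2 was not (unadjusted p = 0.0636, limma). Cdk1, the mitotic kinase, was the one gene of any of these lists to pass the adjusted threshold without a block. It was 4.02, 3.51 and 3.92 in MSC and 25.7, 29.2 and 30.9 in TAC, a log2 fold change of 2.62 with an adjusted p of 0.0390 (limma). That call was lost, with 0 genes higher in TAC past the threshold, without the variance trend, with limma voom, with replicates 1 and 2 averaged, and on leaving out replicate 1 or replicate 2 of either group. Mki67, a marker of cycling cells, was 137, 130 and 41.5 in MSC and 593, 630 and 122 in TAC, so that TAC replicate 3 lay within the MSC range (1.97, adjusted p = 0.361, and 0.0442 with the replicate block, limma). Ccna2, encoding cyclin A2, was 10.8, 9.86 and 25.2 in MSC and 50.7, 52.2 and 21.1 in TAC, so replicate 3 went against replicates 1 and 2 (1.39, adjusted p = 0.342, limma).

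Of 7 tested pocket proteins and CDK inhibitors, 1 had an unadjusted p under 0.05, Cdkn2c, higher in TAC, against 11.9% of all genes in either direction, and the median was 0.19. Cdkn2a and Cdkn2b had means under 1 and were not tested. Groups of the 7 did not overlap for 3 genes higher in TAC and 1 higher in MSC, against 12.3% and 12.2% of all genes. Cdkn1b, which encodes p27, was 56.3, 54.2 and 45.7 in MSC and 37.0, 38.0 and 35.1 in TAC, without overlap (-0.49, adjusted p = 0.500, limma). Cdkn1a, which encodes p21, was 9.43, 10.8 and 8.66 in MSC and 11.7, 12.9 and 29.3 in TAC, higher in TAC without overlap (0.72, adjusted p = 0.586, limma). Cdkn1c, which encodes p57, was 39.4, 44.2 and 7.53 in MSC and 21.1, 21.8 and 5.31 in TAC, with overlapping groups but a lower TAC level at each replicate number (-0.76, adjusted p = 0.767, limma). With the replicate block, 4 of the 7 had an unadjusted p under 0.05, against 20.4% of all genes, Cdkn2c and Rbl1 higher in TAC and Cdkn1b and Cdkn1c higher in MSC, and 0 passed the adjusted threshold (limma).

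Rbl1 and Rbl2 encode the relatives of RB1, and neither passed the threshold. Rbl1, encoding p107, was 13.5, 8.84 and no read in MSC and 27.4, 22.2 and 14.7 in TAC (2.06, adjusted p = 0.470, limma). Rbl2, encoding p130, was 43.2, 38.0 and 24.4 in MSC and 34.6, 28.3 and 5.33 in TAC (-0.91, adjusted p = 0.659, limma). Rbl1 had non-overlapping groups and Rbl2 overlapping ones.

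A list labelled CDK activation and cyclin turnover held 14 genes that act on either, whether they raise or lower CDK activity. Of these, 4 were higher in TAC (Cks1b, Cks2, Skp2 and Wee1) and 1 in MSC (Ambra1) at an unadjusted p under 0.05, against 11.9% of all genes, with a median of 0.45. Cks2, a small CDK-binding subunit, was 1.68, 1.71 and 1.29 in MSC and 13.5, 14.6 and 14.5 in TAC (2.57, adjusted p = 0.0768, limma). Its relative Cks1b was 1.49, 2.67 and 0.033 in MSC and 7.99, 7.89 and 18.8 in TAC (2.46, adjusted p = 0.195, limma).

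Of 12 inputs to the D-type cyclins, 2 were higher in TAC (Mycn and Ctnnb1) and 1 in MSC (Egr1) at an unadjusted p under 0.05, against 11.9% of all genes. The median was 0.011, near that of all genes. Myc, a growth-promoting transcription factor, was 9.25, 9.01 and 12.5 in MSC and 10.7, 8.66 and 4.17 in TAC, with overlapping groups (-0.42, adjusted p = 0.795, limma). Its relative Mycn, named after its values were seen, was 64.5, 71.1 and 12.8 in MSC and 196, 208 and 109 in TAC (2.04, adjusted p = 0.281, limma).

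**Figure D5:**
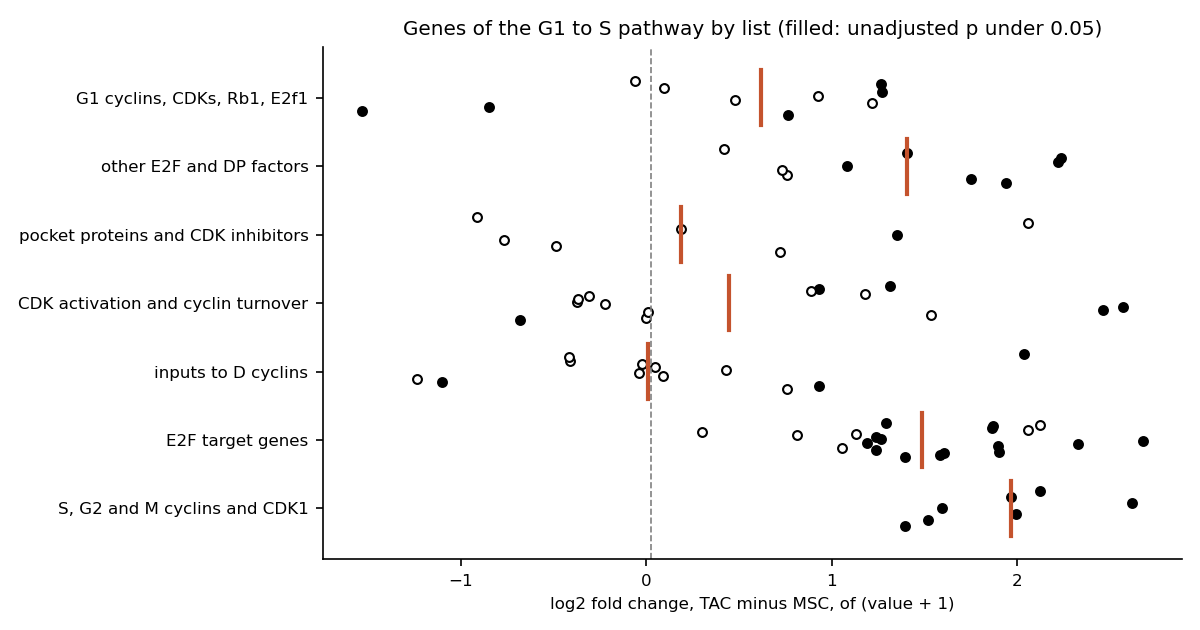
log2 fold change, TAC minus MSC, of value + 1 (horizontal axis) for the tested genes of each list, with points as genes, filled where the unadjusted p was under 0.05, red bars as list medians and the dashed line as the median of all genes (0.026). The E2F target genes and the S, G2 and M genes lie to the right, with medians of 1.49 and 1.97, and the 10 G1 genes spread on both sides of 0.

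Genes with the most similar pattern were sought for 4 of the 10 genes by Pearson's r of log2(value + 1) over the 6 libraries, as a description. For Ccnd1 these were Abce1 (0.999), Eif3e (0.997) and Nhp2 (0.997), and for Ccnd2 Ppfibp1, Numbl and Rftn1 (each 0.997). For Cdk6 they were Eloa, Fam171a2 and Ppp2r5e (each 0.997), and for E2f1 Slc25a4 (0.994), Slc39a10 (0.991) and Eef1b2 (0.988). With 6 libraries in 2 sets, between 51 and 227 of 12724 genes compared reached 0.95 with each of the 4.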

How the data were processed

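RNA sequencing values of 3 MSC and 3 TAC libraries were analysed, with groups taken from the labels. The authors aligned single-end reads to mm10 with TopHat2 2.0.8 and, per the labels, also used CASAVA 1.8.2 and Partek. The study's methods name RPKM, but the deposited values behave as a signal of 1 added to an estimated read number and divided by a size factor per library, not by length. Most low values (74.7% to 94.4% per library) were whole multiples of the lowest value, within 0.01 of a step for values below 50 steps. The counter and its use of strand are not given in the sources used here.

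TAC minus MSC was tested two-sided with limma 3.58.1 in R 4.3.3 on log2(value + 1), with an empirical Bayes variance trend, over 15391 genes (mean of 1 or more), and adjusted by Benjamini-Hochberg at 0.05. A pseudocount of 1 understates changes of low genes. An unadjusted 0.05 was counted because the study's methods name it. The fit was tested on simulated data with independent noise in each library. The simulation held neither the shared deviation of replicate 3 nor its many genes without a read. It therefore cannot speak for calls that depend on the library sets. The study names 3 mice per group, but the labels tie no library to a mouse, so p-values measure the spread between these libraries. Replicates 1 and 2 of each group differed beyond sampling noise. Ratios used exact permutation tests (SciPy 1.17.1).

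Deviations from group means correlated at 0.477, 0.465 and 0.517 for equal replicate numbers. Crossed numbers correlated as well, at 0.462 for number 1 of MSC against number 2 of TAC. The value was 0.480 for number 2 of MSC against number 1 of TAC. The shared deviation was that of replicate 3 against 1 and 2, so these correlations cannot decide how replicates 1 and 2 pair. Pairing by the numbers in the labels was therefore an assumption, on which the replicate block and the paired tests rest.

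Exon lengths and coding sequences came from GENCODE M21 (all 10 genes had the same coordinates there, with the deposited end lowered by 1), promoters from RefSeq. The genes and lists were chosen with earlier results of these data known. Named from the lists were genes past the adjusted threshold (Cdk1), the 4 next largest changes with an unadjusted p under 0.05 (Mcm5, Cks2, Cks1b and Mcm3), and Mki67, Cdk1, Ccna2, Cdkn1a, Cdkn1b, Cdkn1c, Rbl1, Rbl2 and Myc. Other genes of the lists were named after their values were seen. Similar genes were the 3 with the highest r, without predicted genes or clone names. Alternatives were other pseudocounts, filters, scalings and variance models, a replicate block, a library set term, each library left out, and other gene lengths. A gene of the dental epithelium marker list is not reported here.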

Additional observations from a re-analysis of the deposited data

How the results depend on the processing

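The directions of Ccnd1, Ccnd2, Ccnd3, Cdk4, Ccne1, Cdk2 and E2f1 held under each alternative that gave a value. Cdk6 ranged from -0.12 to 0.50 with 1 library left out, turning to -0.09 (MSC replicate 3), -0.088 (TAC replicate 1) and -0.12 (TAC replicate 2), and was -0.010 with replicates 1 and 2 averaged, an alternative chosen after seeing the data. Rb1 ranged from -0.23 to 0.093, turning to 0.093 (MSC replicate 3) and 0.081 (TAC replicate 1), and Ccne2 turned to -0.28 with limma voom on recovered reads, which gave Ccne1 5.61. The ratio of Ccne1 over Ccne2 turned to -0.21 within replicates 1 and 2 and ranged from -0.034 (without MSC replicate 3) to 1.28 with 1 library left out. The cause was not tested.

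Of the 10 genes, 2 passed the adjusted threshold with the replicate block, 4 with a term for the library set (Ccnd1, Ccnd2, Ccnd3 and Cdk4), 7 within replicates 1 and 2, 0 with replicates 1 and 2 averaged, and between 0 and 1 when 1 library was left out (1 without MSC replicate 3). At an unadjusted p under 0.05, the 5 genes became 3 without the variance trend, 8 within replicates 1 and 2, 1 with replicates 1 and 2 averaged and between 2 and 5 when 1 library was left out, with 2 without MSC replicate 1 or 2 and 3 without TAC replicate 1 or 2. Over all genes, 65 calls became 38 with a pseudocount of 0.1, 114 with quantile normalization, 29 without the variance trend, 23 with limma voom, 229 with the replicate block, 1814 with the library set term, 6796 within replicates 1 and 2, 10 with replicates 1 and 2 averaged, and between 0 and 292 when 1 library was left out (0 without replicate 1 or 2 of either group, 292 without MSC replicate 3, 36 without TAC replicate 3). The related lists had 35 distinct genes (Ccna2 and Rbl1 stand in 2 lists) at an unadjusted p under 0.05, 53 within replicates 1 and 2, 14 with these averaged, and between 16 and 38 with 1 library left out (16 without TAC replicate 1, 17 without TAC replicate 2). At the unadjusted threshold the replicate block added Ccne1, for 6 of the 10 genes, and at the adjusted threshold it changed no call beyond Ccnd2 and Cdk4. Taken within replicate pairs, the mean ratio differences were those without pairing, with an exact paired permutation p of 0.25 to 0.75. Among the D-type cyclins, the length of the longest transcript gave Ccnd1 27.3% in MSC and 60.3% in TAC and Ccnd3 27.3% and 19.2%, and that of the longest protein-coding transcript gave Ccnd1 22.3% and 52.0%, Ccnd3 40.5% and 30.3% and Ccnd2 37.2% in MSC. Ccne1 rested on 110, 102 and 0 estimated reads in MSC, and the 0 came from the deepest MSC library.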
